A study of Mus musculus with 11 samples.

Results

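Peaks of H3K27me3, a histone modification laid down by Polycomb proteins at repressed genes, were described over 9 genes of the Sonic hedgehog pathway in the embryonic mouse forebrain. The genes were the ligand *Shh*, its receptor *Ptch1*, the co-receptors *Boc*, *Cdon* and *Gas1*, the signal transducer *Smo*, and the transcription factors *Gli1*, *Gli2* and *Gli3*, and they are 9 of the 21755 protein-coding genes annotated on chromosomes 1 to 19 and X. They were chosen by name as core components of the pathway, with values of these lists in view, since the 2 kb upstream of *Gli2* and of *Boc* were already known to lie under a peak in 1 region alone. Coverage of these genes is therefore given as a description, without any test.

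In this pathway the secreted ligand SHH binds PTCH1 and so releases SMO, which PTCH1 otherwise holds inactive. SMO then changes the balance between activator and repressor forms of the GLI proteins, with GLI2 the main activator, GLI3 mainly a repressor, and *Gli1* itself a target of the signal. BOC, CDON and GAS1 bind SHH at the cell surface and help it to act on PTCH1. In the telencephalon the ligand acts from the ventral side, where it is needed for the medial ganglionic eminence to form. *Ptch1*, *Hhip* and *Gli1* are known to rise with the signal, and *Boc*, *Cdon* and *Gas1* are known to be lowered by it in the neural tube.

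The modification was mapped by CUT&Tag, where an antibody-guided transposase cuts and tags the DNA next to modified nucleosomes for sequencing. There were 11 samples, all from wild-type C57BL/6J embryos, with 2 from the medial (MGE) and 3 each from the caudal (CGE) and lateral (LGE) ganglionic eminence and the cortex (CTX). The titles number the replicates of every region 1 and 2, and in CGE, LGE and CTX the number 2 is shared by a pair of libraries, which may be repeats of the same material. Broad peaks were called by the authors on the merged samples of each region, so that each region is 1 list and no value has a replicate error. MGE is the most ventral of the 4 regions and CTX the most dorsal, while LGE lies dorsal and CGE caudal to MGE. The dissected cortex was the somatosensory part, tissue of several embryos was combined for a sample, and the labels name embryos of E12.5 and E14.5 without an age for each sample, although the study's account of CUT&Tag names E12.5. The protocol also speaks of combining equal numbers of nuclei of the regions, whereas each label names a single region. *Nkx2-1*, a defining gene of MGE, had 100% of its 2 kb upstream under peaks in all 4 lists, MGE included.

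The MGE list was the shortest, with 15384 peaks over 24.5 Mb, against 16851 to 19196 peaks over 26.4 to 32.9 Mb in the other lists. It also had the lowest median −log10 q, 3.38, against 3.81 to 4.61. It rests on fewer libraries and, by the read totals in the study's methods, on fewer reads than the others, and the part of either in the values below was not tested. Because each sample is a whole tissue, the modification in fewer cells and less of it in each cell cannot be told apart.

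The upstream sequences of 4 of these genes show different patterns of coverage. Each is the 250 bases before the start site in the RefSeq table of GRCm38.p6, on the strand of the gene, with CpG dinucleotides in capitals. *Gli2* is shown because these bases were under a peak in MGE and in no other list, *Gli3* because they were covered in the 3 eminences and not in CTX, *Gas1* because they were covered in CGE and in part in CTX, and *Smo* because no list covered them. The table held 6 of the 9 genes, among them none of *Shh*, *Gli1* and *Boc*.
Gli2: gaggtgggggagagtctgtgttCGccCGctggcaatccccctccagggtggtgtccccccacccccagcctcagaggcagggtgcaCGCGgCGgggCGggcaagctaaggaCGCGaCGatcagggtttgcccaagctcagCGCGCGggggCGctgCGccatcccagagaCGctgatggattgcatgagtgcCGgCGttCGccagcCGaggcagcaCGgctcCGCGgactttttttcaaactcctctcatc
Gli3: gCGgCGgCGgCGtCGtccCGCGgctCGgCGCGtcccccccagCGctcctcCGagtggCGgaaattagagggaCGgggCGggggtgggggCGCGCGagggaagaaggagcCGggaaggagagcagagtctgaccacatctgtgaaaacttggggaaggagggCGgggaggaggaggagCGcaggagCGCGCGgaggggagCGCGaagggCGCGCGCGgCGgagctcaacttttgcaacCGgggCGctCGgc
Gas1: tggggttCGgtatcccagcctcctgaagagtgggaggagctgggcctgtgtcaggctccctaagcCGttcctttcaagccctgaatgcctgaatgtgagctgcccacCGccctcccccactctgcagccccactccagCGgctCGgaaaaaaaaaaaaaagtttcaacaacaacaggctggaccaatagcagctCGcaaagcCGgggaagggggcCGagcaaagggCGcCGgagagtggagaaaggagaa
Smo: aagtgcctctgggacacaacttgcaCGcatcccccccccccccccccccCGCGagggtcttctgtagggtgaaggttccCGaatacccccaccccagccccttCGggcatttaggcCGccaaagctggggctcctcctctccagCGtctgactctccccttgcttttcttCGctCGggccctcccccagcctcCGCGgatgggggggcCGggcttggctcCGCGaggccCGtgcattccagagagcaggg

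These stretches lie at chr1:119053620-119053869 on the minus strand for *Gli2*, chr13:15463473-15463722 on the plus strand for *Gli3*, chr13:60177536-60177785 on the minus strand for *Gas1* and chr6:29735247-29735496 on the plus strand for *Smo*. The RefSeq start of *Gli3* lies 488 bases inside the start of the gene in GENCODE, and none of the 250 bases of its stretch is in an annotated exon of the gene, so that it is intronic in transcripts that start further upstream. The *Gli3* stretch held 34 CpGs, that of *Gli2* 22, that of *Smo* 15 and that of *Gas1* 10. The table's entries for the remaining genes lie well inside them and were covered in no list, that of *Ptch1* with 41 CpGs and that of *Cdon* with 1. The stretches of *Gli3* and *Gli2* were free of peaks in CTX, and that of *Smo* was free of peaks in all 4 lists while that of *Gas1*, with fewer CpGs, was covered in CGE.

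For the first comparison, coverage was taken over the gene body and 10 kb either side of it, the window of a gene. All 9 genes had a covered base in MGE, CGE and LGE and 7 had one in CTX, where *Gli2* and *Gli3* had none. Over all protein-coding genes the share with a covered base was 43.3% in MGE, 46% in CGE and 44.7% in LGE, and 47.2% in CTX. Summed over the 9 windows, peaks covered 78.1 kb in MGE, 66.4 kb in CGE and 39.7 kb in LGE, and 34.6 kb in CTX. Their number fell from 38 in MGE through 29 in CGE and 17 in LGE to 14 in CTX. Over the whole genome the order was different, since MGE had the fewest covered bases of the 4 lists and the fewest peaks.

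Mean window coverage of the 9 genes was 12.4% in MGE, 13.6% in CGE and 9.15% in LGE, and 9.01% in CTX, so that CGE stood first on this measure. The median window coverage of the 9 genes was 10.4% in MGE and 5.1% in CGE, then 1.81% in LGE and 1.22% in CTX. Over the 12122 genes with a covered base in any list the median was 2.01% in MGE, 3.14% in CGE and 2.31% in LGE, and 2.64% in CTX. Coverage in MGE minus that in CTX averaged 3.38 percentage points over the 9 genes, with a median of 3.77, and was positive for 6 of them and negative for 3. Over the 12122 genes the same difference averaged -0.656 points, with a median of -0.258, and was positive for 3943 and negative for 7242. With every list limited to the same number of its strongest peaks the mean over the 9 genes was 3.59 points, and with the same number of covered bases it was 4.66. The positive mean depended on the flanks, as it was -1.34 points over gene bodies alone. It also leaned on *Gas1*, whose difference was the largest of the 9, 23.1 points over the window but -0.135 over the gene body. In either mean *Shh* and *Gas1* are short genes that weigh as much as the long ones.

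A step down from ventral to dorsal was counted where MGE was at least as high as LGE and CGE, both at least as high as CTX, and MGE above CTX. *Gli2*, *Boc* and *Cdon* stepped down, 3 of 9, against 7.78% of the genes with a covered base. *Shh* and *Ptch1* stepped up, 2 of 9, against 20.2%. The remaining 4 followed neither order, and for *Gli3* and *Gas1* this was because CGE stood slightly above MGE. Joining peaks less than 3 kb apart, or limiting each list to its strongest peaks of equal covered bases, put these 2 genes among those that stepped down and raised the count to 5. The share of genes with a covered base that stepped down was 7.89% with peaks joined and 17.8% with equal covered bases. The 2 kb upstream of *Gli2* and *Boc*, which helped to choose the genes, lie inside these windows. Nothing is therefore read from the counts of genes that stepped down.

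**Figure D1:**
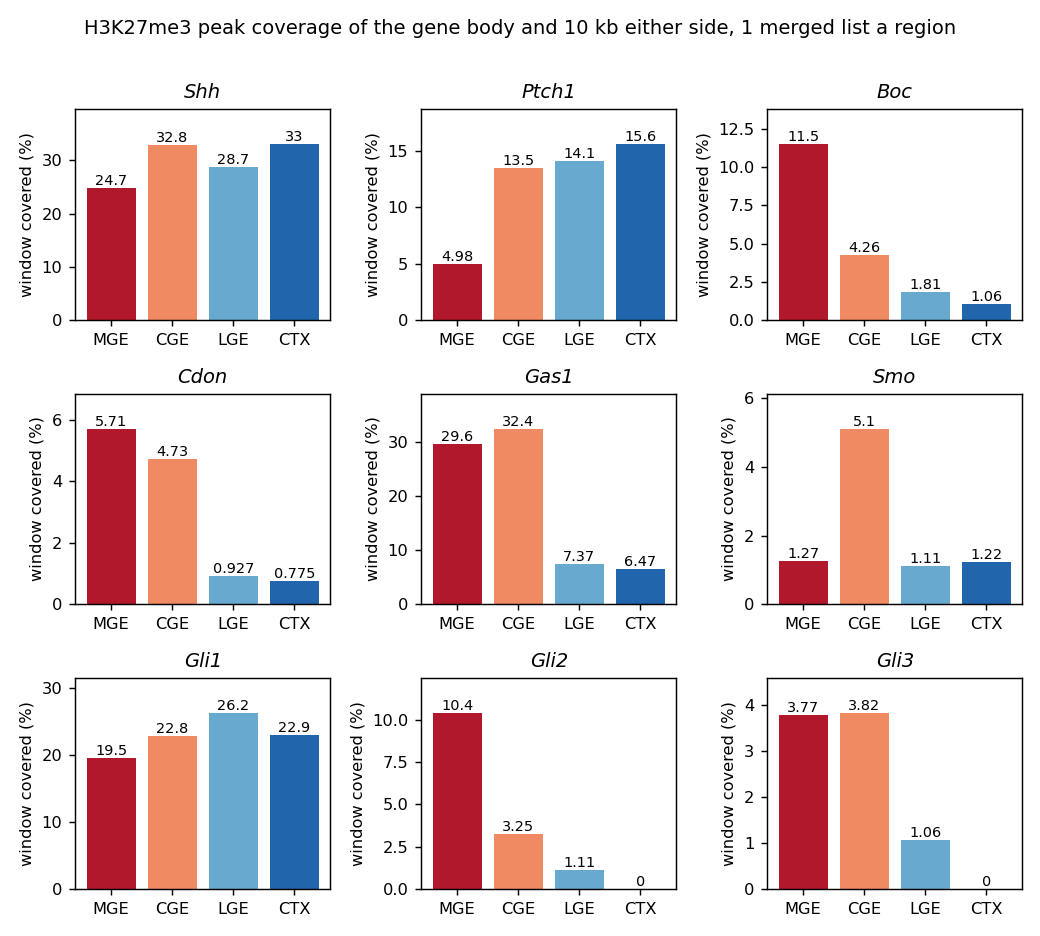
Bars give the percentage of each gene's window (gene body and 10 kb either side) under H3K27me3 peaks in the merged list of MGE, CGE, LGE and CTX, each panel with its own axis from 0 and no error bars because each region is 1 list. *Gli2*, *Boc* and *Cdon* fall from MGE to CTX, *Gli3* and *Gas1* are high in MGE and CGE alone, *Ptch1*, *Shh* and *Gli1* are lowest in MGE, and *Smo* stands up in CGE.

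The ligand gene, *Shh* (ENSMUSG00000002633.4, chr5:28456815-28467256, minus strand), was heavily covered in every list. Its window was 24.7% covered in MGE, 32.8% in CGE and 28.7% in LGE, and 33.0% in CTX, or 7.53, 9.98, 8.73 and 10.0 kb. In CGE and CTX a single peak ran over almost the whole gene, from -0.93 to 9.05 kb and from -0.939 to 9.11 kb of the start site, where negative distances lie upstream. In MGE the domain was in 2 pieces, from -0.847 to 4.93 kb and from 7.36 to 9.11 kb, and in LGE it was open between 0.667 and 1.95 kb. The outer edges were therefore nearly the same in the 4 lists, and the lower coverage in MGE and LGE came from gaps inside the gene. When peaks less than 3 kb apart were joined, the difference between MGE and CTX shrank from -8.28 to -0.302 points.

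*Shh* is regulated by enhancers spread far upstream, as far as an intron of *Lmbr1* that holds its limb enhancer. In the 1000 kb upstream, all 4 lists had a peak at -911 kb, at the start of *Lmbr1*. A peak from -409 to -408 kb was present in MGE and LGE, with −log10 q of 3.76 and 2.5, and not in CGE or CTX. Peaks between -328 and -315 kb were present in CGE and CTX, with −log10 q between 1.21 and 2.85, and not in MGE or LGE. MGE alone had peaks between -790 and -784 kb, with −log10 q of 2.73 and 3.64.

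*Ptch1* (ENSMUSG00000021466.12, chr13:63508328-63573598, minus strand) encodes the receptor and is also a target of the signal. It showed the reverse of the *Gli2* order. Peaks covered 4.25 kb of its window in MGE and 11.5 kb in CGE, then 12 kb in LGE and 13.3 kb in CTX, which is 4.98%, 13.5%, 14.1% and 15.6%. The start-site peak ran from -0.914 to 1.04 kb in MGE and reached further downstream in the other lists, from -2.98 to 4.46 kb in CGE, from -2.9 to 4.52 kb in LGE and from -1.02 to 4.55 kb in CTX. In MGE a separate short peak from 4.16 to 4.53 kb lay where the domain ended in the other lists. The −log10 q of the start-site peak was low in MGE, 1.69, whereas it reached 9.55 in CGE and 15 in LGE, and 38.6 in CTX. The value in MGE was above that of 17.8% of the peaks in its list, and the value in CTX above that of 90.5%. The fold enrichment of this peak over local background was not lower in MGE. It was 2.37 in MGE, 1.96 in CGE and 2.09 in LGE and CTX. With peaks limited to a q-value under 0.001, *Ptch1* was left without a covered base in MGE and kept 12.5% of its window in CTX.

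Inside *Ptch1*, peaks at 14.2 to 15.9 kb were present in CGE, LGE and CTX and not in MGE. A peak around 45.1 to 46.7 kb was present in CGE and CTX alone, and the peak between 21.8 and 25.6 kb was 619 bases wide in MGE, 2945 in LGE and 3568 in CTX, with none in CGE. Of the bases of the *Ptch1* window covered in any list, 26.6% were covered in all lists but MGE. For *Shh* this share was 24%, and for *Gli2*, *Gli3*, *Boc*, *Cdon*, *Gas1* and *Smo* it was 0. The same share was not computed over all genes.

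The start-site domain of *Ptch1* also holds matches to the core sequence bound by GLI proteins. The core GACCACCCA, or TGGGTGGTC on the other strand, was searched on both strands in all 9 windows. It occurred 14 times, 6 of them in *Gli2* and 3 in *Ptch1*, and a peak of any list covered only 2, both in *Ptch1*. Those 2 are shown on the strand of the gene, with the core in capitals, because they were under peaks in all 4 lists, MGE included.
Ptch1 exon site: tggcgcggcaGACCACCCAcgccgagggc
Ptch1 intron site: cctcagccctGACCACCCAagtcgagcag

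The exon site lies at chr13:63573465-63573473, 0.129 kb into the gene, and the intron site at chr13:63569285-63569293, 4.31 kb into it. In MGE the intron site fell under the short separate peak, so both matches kept a peak where most bases between them did not. The third match in *Ptch1*, at 7.16 kb, was under no peak. Within 2 kb either side of the start site, *Ptch1* was the only member of the 9 with the core, which 3.43% of all genes hold there. A match of these letters describes the sequence and does not show binding.

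The co-receptor gene *Boc* (ENSMUSG00000022687.12, chr16:44485049-44558897, minus strand) had 10.8 kb of its window under peaks in MGE, 4.0 kb in CGE and 1.7 kb in LGE, and 0.995 kb in CTX. As percentages these were 11.5, 4.26, 1.81 and 1.06. The start-site peak shrank from both sides in this order. It ran from -2.11 to 1.79 kb in MGE, from 0.147 to 1.69 kb in CGE and from 0.378 to 1.58 kb in LGE, and CTX had none. Each of these intervals lay inside the one before, so the part covered in all 3 eminences was downstream of the start site and the upstream part was covered in MGE alone. Its −log10 q was 14.2 in MGE, 18.3 in CGE and 2.59 in LGE, so the widest peak was not the one with the strongest q-value, which also depends on the depth of a list. A second peak, from -7.56 to -5.8 kb in MGE and from -7.33 to -5.92 kb in CGE, was not present in LGE or CTX. The only peak of CTX was an intronic one of 995 bases, from 27.5 to 28.5 kb, with a −log10 q of 1.75. The last peak of the MGE and CGE windows, beyond 75 kb, lies at the neighbouring gene *Cfap44*.

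*Cdon* (ENSMUSG00000038119.15, chr9:35421128-35507652, plus strand) encodes the paralogue of BOC. Its window held 6.08 kb under peaks in MGE, 5.04 kb in CGE and 0.987 kb in LGE, and 0.826 kb in CTX, which is 5.71%, 4.73%, 0.927% and 0.775%. MGE and CGE were thus alike, as were LGE and CTX, with a gap between the pairs. No list covered any of the 2 kb upstream. The peak nearest the start ran from 0.675 to 3.9 kb in MGE and from 0.733 to 3.99 kb in CGE, but from 0.055 to 1.04 kb in LGE and from 0.055 to 0.88 kb in CTX. *Cdon* therefore did not have nested peaks, as those of LGE and CTX began closer to the start site than those of MGE and CGE. An intronic peak near 22.6 to 24.2 kb was present in MGE and CGE, and one from 62.7 to 64.5 kb in MGE alone.

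*Gas1* (ENSMUSG00000052957.8, chr13:60174405-60177365, minus strand) encodes a membrane-anchored protein and has the shortest gene body of the 9, 2.96 kb. Peaks covered 6.8 kb of its window in MGE and 7.44 kb in CGE, then 1.69 kb in LGE and 1.49 kb in CTX, or 29.6%, 32.4%, 7.37% and 6.47%. The window thus separated MGE and CGE from LGE and CTX, but the gene itself did not. Over the gene body coverage was 40% in MGE, 67.4% in CGE and 0% in LGE, and 40.1% in CTX. The start site itself was covered in CGE and CTX. Most of the MGE coverage lay downstream, in peaks from 3.38 to 5.91 kb and from 7.12 to 10.1 kb. The difference between MGE and CTX was 23.1 points over the window and -0.135 points over the gene body alone. The *Gas1* peak of CTX had a −log10 q of 1.87, and with a q-value under 0.001 no *Gas1* peak was left in CTX while 29.1% of the window stayed covered in MGE.

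*Smo* (ENSMUSG00000001761.7, chr6:29735503-29761365, plus strand) encodes the transducer and was nearly free of the modification. Its window was covered for 1.27% in MGE, 5.10% in CGE and 1.11% in LGE, and 1.22% in CTX. In MGE, LGE and CTX the whole of this was 1 short peak of 511 to 584 bases at about 33.4 kb, beyond the end of the gene and at the neighbouring gene *Ahcyl2*. Only CGE had a peak in the gene, from 0.382 to 1.91 kb, with a −log10 q of 2.67, and this peak was lost at a q-value under 0.001.

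*Gli1* (ENSMUSG00000025407.7, chr10:127329882-127341974, minus strand) encodes the GLI protein that acts as an activator and is a standard readout of the signal. Its start-site peak had nearly the same edges in the 4 lists. It ran from -0.485 to 2.95 kb in MGE, from -0.682 to 2.99 kb in CGE, from -0.5 to 2.98 kb in LGE and from -0.486 to 2.91 kb in CTX. Its −log10 q was lowest for MGE, at 21.3, with 44.6 for CGE, 45.7 for LGE and 50.5 for CTX. A q-value also depends on the depth of a list. By fold enrichment over local background, this peak was not lowest in MGE. That value was 3.64 for MGE, with 3.06 for CGE, 3.64 for LGE and 3.8 for CTX. Over the gene body coverage was 24.4%, 24.7%, 24.6% and 24.1% in the same order. The window values of 19.5%, 22.8%, 26.2% and 22.9% differed more and include a downstream peak at *Arhgap9* and, in CGE and LGE, an upstream peak at *Inhbe*. Of the bases covered in any list, 71.6% were covered in all 4, the highest share among the 9 genes, followed by 61.3% for *Shh*.

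*Gli2* (ENSMUSG00000048402.14, chr1:118834132-119053619, minus strand) encodes the main activator and had the widest range of coverage in kilobases. Peaks covered 25.0 kb of its window in MGE and 7.78 kb in CGE, then 2.65 kb in LGE and none in CTX, or 10.4%, 3.25%, 1.11% and 0%. It had 10 peaks in MGE, 5 in CGE and 1 in LGE, and 0 in CTX. The start-site peak ran from -2.3 to 3.74 kb in MGE, from 0.081 to 3.45 kb in CGE and from 0.451 to 3.1 kb in LGE. As in *Boc*, each interval lay inside the one before, and the bases printed above, just upstream of the start, were covered in MGE alone. The −log10 q of this peak was 21 in MGE, 20.4 in CGE and 5.45 in LGE. The values in MGE and CGE were above those of 87.6% and 78.3% of the peaks in their lists. In CGE the peak began just downstream of the start site.

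The remaining *Gli2* peaks were intronic or over exons. MGE had a broad peak from 67.7 to 73.7 kb, of which CGE had only 409 bases, and a cluster of 4 peaks between 129 and 152 kb, of which CGE had 3. All the bases covered in CGE lay within those covered in MGE, and all those of LGE within those of CGE. Of the 25.0 kb covered in any list, 17.2 kb or 68.9% were covered in MGE alone, 5.13 kb in MGE and CGE alone and 2.65 kb in the 3 eminences. A share over all genes was not computed for comparison.

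*Gli3* (ENSMUSG00000021318.15, chr13:15463235-15730026, plus strand) encodes the main repressor form and shared with *Gli2* the lack of any peak in CTX. Its window had 10.8 kb under peaks in MGE, 11.0 kb in CGE and 3.03 kb in LGE, and 0 in CTX, or 3.77%, 3.82%, 1.06% and 0%. Here MGE and CGE were alike. The start-site peak ran from -1.14 to 1.95 kb in MGE, from -1.17 to 2.09 kb in CGE and from -0.723 to 1.95 kb in LGE, with a −log10 q of 10.9, 23.8 and 5.96. Unlike those of *Gli2* and *Boc*, this peak spanned the start site in all 3 eminences. Intronic peaks near 78.4 to 79.8 kb and 157 to 161 kb were present in MGE and CGE at nearly the same edges, and LGE had 362 bases of the latter.

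**Figure D2:**
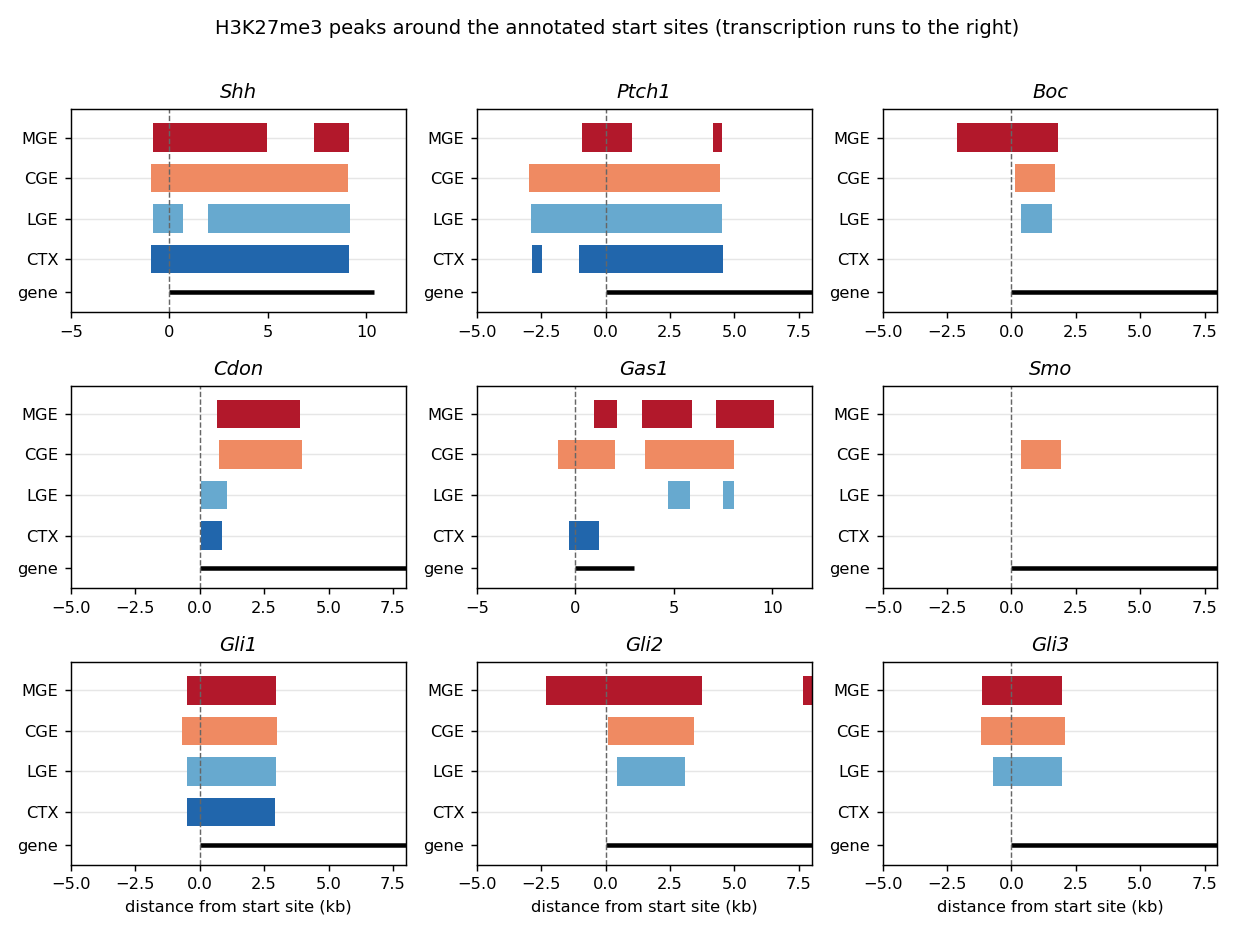
Bars mark H3K27me3 peaks of the 4 merged lists around the annotated start site of each of the 9 genes (dashed line at 0), with distance in kb along the direction of transcription and the gene as a black line. The peaks of *Gli2* and *Boc* are nested and smaller from MGE to LGE with none in CTX, those of *Gli3* span the start in the 3 eminences alone, that of *Ptch1* is shortest in MGE, and those of *Gli1* have nearly the same edges in all 4 lists.

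**Figure D3:**
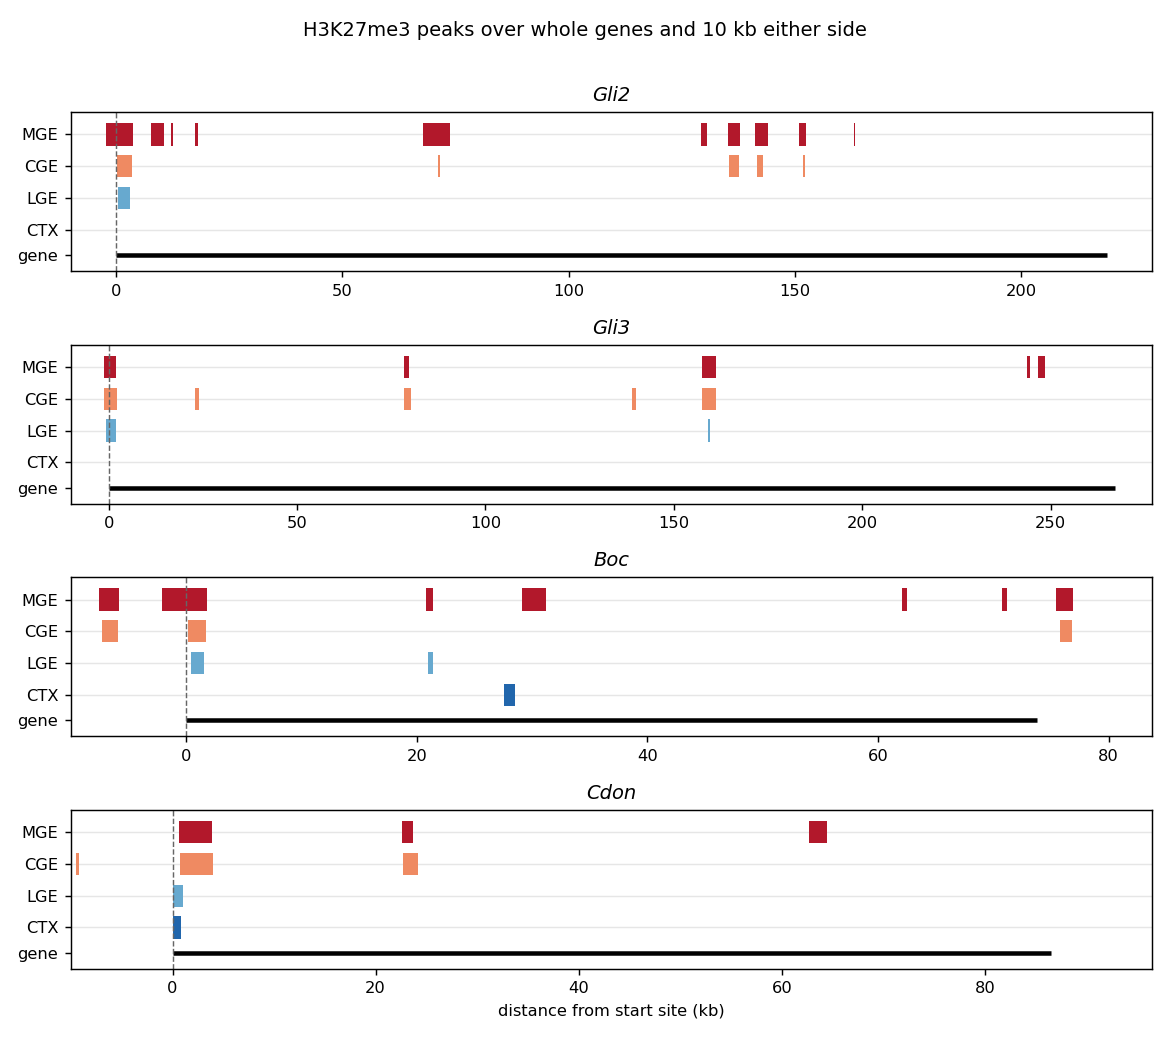
Bars mark every H3K27me3 peak over the window of *Gli2*, *Gli3*, *Boc* and *Cdon* in the 4 merged lists, with distance from the start site in kb and the gene as a black line. *Gli2* has 10 peaks in MGE and 5 in CGE, then 1 in LGE and 0 in CTX, *Gli3* has 5, 5, 2 and 0, *Boc* 7, 3, 2 and 1, and *Cdon* 3, 3, 1 and 1.

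*Gli2*, *Gli3*, *Boc* and *Cdon* were also summed, a grouping made after their values were seen. Their peaks covered 52.7 kb in MGE, 27.8 kb in CGE and 8.37 kb in LGE, and 1.82 kb in CTX. Of the 58.0 kb covered in any list, 48.4% were covered in MGE alone, 0.255% in all 4 lists, and 96.9% were not covered in CTX. Such shares, here and for the single genes above, were not computed over all genes. No base was covered in LGE alone, and 0.995 kb, the intronic *Boc* peak, was covered in CTX alone. The 98 peaks over the 9 genes lay mostly inside genes, and those within introns fell from 17 in MGE through 10 in CGE and 5 in LGE to 2 in CTX, while those over a start site numbered 6, 5, 4 and 4.

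The second comparison concerned the promoter, taken as the 2 kb upstream of the start site and counted as marked when peaks covered 50% of it or more. *Gli2*, *Gli3* and *Boc* were marked in MGE, 3 of 9 against 6.47% of all genes, and *Ptch1* and *Gli3* in CGE, 2 of 9 against 8.33%. *Ptch1* alone was marked in LGE, where the share of all genes was 6.52%, and in CTX, where it was 7.14%. These values helped to choose the genes, and nothing is read from the counts. Several members lay close to the 50% line. The *Ptch1* promoter was 45.7% covered in MGE and 50.9% in CTX, with 100% in CGE and LGE. The *Gli3* promoter was 57.0% covered in MGE, 58.7% in CGE and 36.1% in LGE, and 0% in CTX. The *Shh* promoter stayed just below the line in every list, with 42.4% in MGE and 46.5% in CGE, then 42.3% in LGE and 47.0% in CTX. For *Gli2* and *Boc* the values were 100% in MGE and 0% in the other lists. In CGE and LGE their peaks began just downstream of the start site, and in CTX there was none.

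Over 2 kb either side of the start site the other lists were therefore not alike. *Gli2* was covered for 100% in MGE, 48% in CGE and 38.7% in LGE, and 0% in CTX. *Boc* was covered for 94.8%, 38.6%, 30.1% and 0%. *Gli3* had 77.2%, 79.3%, 66.8% and 0%, and *Cdon* 33.1%, 31.7%, 24.7% and 20.6%. On this measure *Gli2*, *Boc* and *Cdon* stepped down, 3 of 9 against 8.84% of the 8507 genes with a covered base there, and none stepped up, against 20.8%. *Gli2*, *Gli3* and *Boc* were covered for at least 50% in MGE and free of peaks in CTX, as were 31 genes in all or 0.142% of the 21755. The reverse, at least 50% in CTX and free in MGE, was found in 48 genes or 0.221%, none of them among the 9. The 2 kb upstream of *Gli2* and *Boc*, part of this span, helped to choose the genes, so nothing is read from these counts either. *Ptch1* had 48.8% in MGE, 100% in CGE and LGE and 75.4% in CTX, and *Gli1* stayed between 62.1% and 67%.

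**Figure D4:**
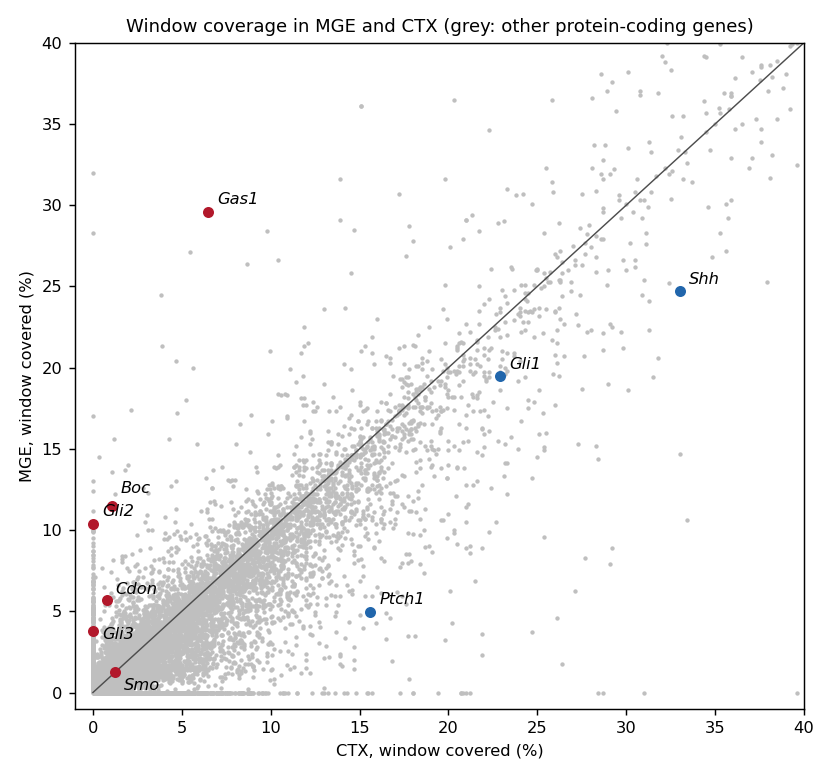
Each point is a protein-coding gene, placed by the percentage of its window under H3K27me3 peaks in CTX (horizontal) and MGE (vertical), with equal values on the line, the 9 pathway genes in red where MGE is higher and in blue where it is lower, and genes beyond the axis ends not drawn. *Gas1* (29.6% against 6.47%), *Boc*, *Gli2*, *Cdon* and *Gli3* lie above the line, *Smo* on it, and *Ptch1* (4.98% against 15.6%), *Shh* and *Gli1* below it.

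CpG dinucleotides are a sequence feature on which Polycomb domains are known to sit. The start-site regions of the 9 genes held more of them than those of 58.8% (*Shh*) to 99.7% (*Gas1*) of all genes. Within 2 kb either side of the start the number of CpGs per 100 bases was 7.4 in *Gas1*, 6.02 in *Gli3*, 4.3 in *Gli2*, 3.85 in *Cdon*, 3.7 in *Smo*, 3.55 in *Ptch1*, 3.3 in *Gli1*, 2.95 in *Boc* and 2.53 in *Shh*, all above the median of 2.17 over all genes. CpG number did not order the genes by coverage, as *Smo* had more CpGs than *Ptch1* or *Gli1* and almost no peaks.

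In *Gli2*, *Gli3*, *Boc* and *Cdon*, the only genes examined for this, bases near the start shared by more lists held more CpGs. Distance from the start site was not accounted for. In the 10 kb either side of the *Gli2* start, bases under no peak held 1.53 CpGs per 100 bases, those under a peak of 1 list 2.15, and those under peaks of 2 or more lists 3.26. In *Boc* the values were 0.844, 1.7 and 3.58, in *Gli3* 0.729, 3.95 and 7.28, and in *Cdon* 0.94, 0.973 and 3.75. In each of these genes the bases covered in 2 or more lists were the richest, and in *Gli2* and *Boc* the poorer bases under a peak of 1 list were those covered in MGE alone. In *Gli3* and *Cdon* the bases under a peak of 1 list numbered only 177 and 411.

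To see how the rest of the pathway compared, 22 further genes were taken from a list set by role. Of these, 20 had a covered base in their window in at least 1 list, as had 12122 of all 21755 genes. A covered base in all 4 lists was found in 18, a count not made over all genes. *Scube2* and *Kif7* stepped down from MGE to CTX, and *Scube1*, *Hhip* and *Olig2* stepped up. Over the genes with a covered base these shares were 7.78% and 20.2%. The median difference between MGE and CTX was 0 points, and 2 genes, *Scube2* and *Olig2*, differed by 10 points or more. Most of the 22 genes thus followed neither order.

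The other ligand genes, *Ihh* and *Dhh*, had windows covered for 19.9% to 21% and 18.6% to 19.6% over the 4 lists, a narrow range. The *Ihh* promoter was covered for 91.6% in MGE, 88.5% in CGE and 77.7% in LGE, and 88.2% in CTX. Among genes for ligand processing and release, *Scube2*, which encodes a secreted protein that helps to free the ligand, had 20.4% of its window covered in MGE and 14.3% in CGE, then 15.2% in LGE and 4.7% in CTX. Its promoter was covered for 52.5% in MGE and for 32.2% to 33.2% in the other lists. The *Scube3* promoter was marked in all 4 lists, at 67.8%, 100%, 54.2% and 58.4%. *Disp1*, which encodes the transporter that releases the ligand, had no covered base in any list.

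Among receptors and binding proteins, *Hhip* stepped up from MGE to CTX, as *Ptch1* did. The window of *Hhip*, which encodes a membrane protein that binds and sequesters the ligand, was covered for 2.14% in MGE, 5.42% in CGE and 4.51% in LGE, and 6.82% in CTX. *Ptch1* and *Hhip* are known targets of the signal, and both had their lowest window coverage in MGE. The window of *Gli1*, another target, was also lowest in MGE, although its start-site peak had nearly the same width in every list. Over the *Gli1* gene body coverage was 24.4% in MGE and 24.1% in CTX. The windows of *Shh*, *Scube1* and *Lrp2*, which are not named as targets here, were lowest in MGE as well. Window coverage was lower in MGE than in CTX for 7242 of the 12122 genes with a covered base. How many of these genes were lowest in MGE among the 4 lists was not counted. Whether the signal has a part in these values was not tested. *Lrp2*, which encodes a large endocytic receptor, had 100% of its promoter covered in all 4 lists.

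Among transducers and regulators, *Evc* and *Evc2* stand head to head and share a promoter peak, so their values are not separate. The *Evc* promoter was covered for 86.8% in MGE, 94.3% in CGE and 84.8% in LGE, and 0% in CTX. For *Evc2* the values were 96%, 100%, 96.3% and 0%. Like *Gli3*, this pair was thus covered at the start in the 3 eminences and free of peaks in CTX. The promoter of *Sufu*, which encodes a binding partner that restrains GLI proteins, was covered for 87.2% in MGE and 86.1% in CGE, then 30.1% in LGE and 87.0% in CTX.

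Of the 6 transcription factor genes that answer to the pathway in the ventral neural tube, 5 had a marked promoter in at least 1 list and 4 in all 4. Over all genes the share marked in a single list was between 6.47% and 8.33%. The promoters of *Nkx2-1*, *Nkx6-1* and *Nkx6-2* were covered for 100% in all 4 lists, that of *Nkx2-2* for 74.2% to 77.3%, and that of *Foxa2* for 100% in MGE, CGE and CTX and 32.5% in LGE. *Olig2*, which marks ventral progenitors, had its promoter below the line in every list, and its window was covered for 33.9% in MGE, 40.5% in CGE and 46.6% in LGE, and 54.3% in CTX. Its gene body was covered for 29.6% in MGE and for 73.2% to 76.7% in the other lists. *Olig2* was the only gene of this group with a stepwise order.

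**Figure D5:**
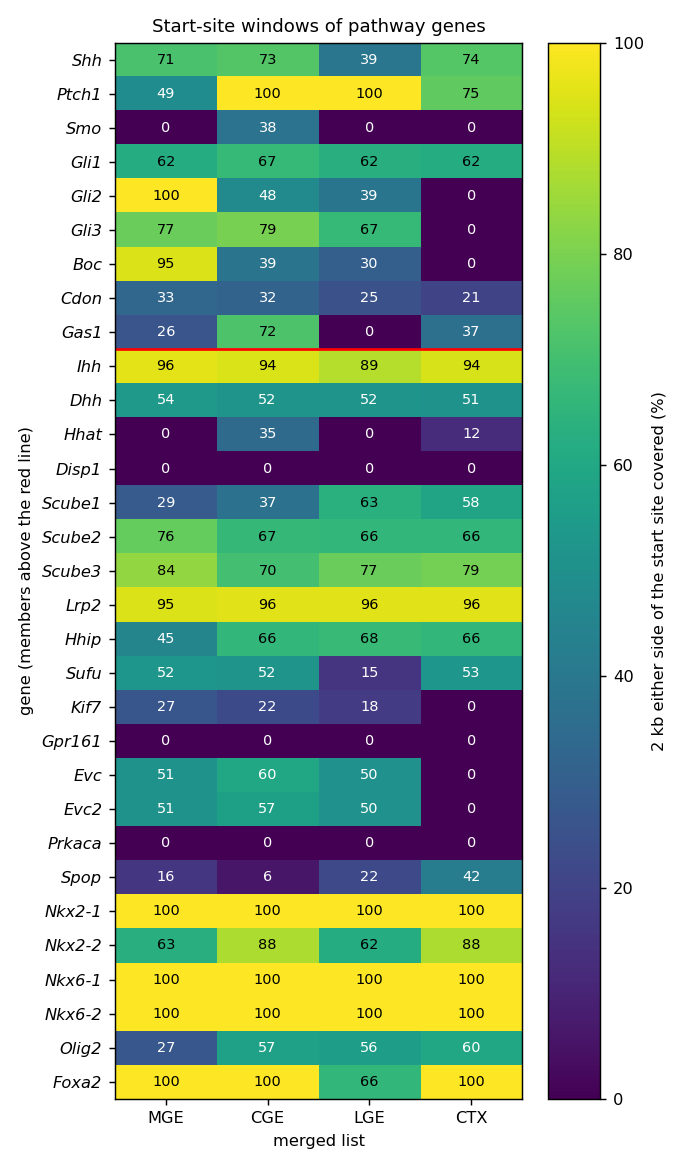
Each cell gives the percentage of the 2 kb either side of the start site under H3K27me3 peaks for a pathway gene (rows) in a merged list (columns), with the 9 members above the red line and the 22 other genes below it, and colour following the printed value. *Gli2*, *Gli3*, *Boc*, *Kif7*, *Evc* and *Evc2* are covered in MGE and at 0 in CTX, and *Nkx2-1*, *Nkx6-1* and *Nkx6-2* are at 100% in all lists.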

How the data were processed

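H3K27me3 CUT&Tag was measured in 11 samples, grouped by the region in their labels. Per the study's methods, the authors mapped read pairs to GRCm38 (mm10) using Bowtie2, discarded blacklisted regions and, with Picard, PCR duplicates, pooled the replicates of a region using SAMtools, and ran MACS in broad mode. The MACS version and control are not given in the sources used here. The deposited lists hold positions, a score derived from the q-value, a fold enrichment (a ratio to local background), and the −log10 of a p-value (not used) and of a q-value. Positions and −log10 q entered the description of peaks, as did fold enrichment for *Ptch1* and *Gli1*, and −log10 q their ranking and filtering. The lists hold no read counts, so no counting error is given; the study's methods give read totals for its libraries, which sum to the least in MGE, and peak number can rise with depth.

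Gene positions came from GENCODE M21, and sequence from the RefSeq copy of GRCm38. Peaks on the mitochondrial genome (2 to 4 a list) were left out. Covered bases were computed in Python 3.11.15 with numpy 2.4.6, with code tested on simulated data. Coordinates count from 1. Windows, promoters and steps were as given above, and no test was made because each region is 1 list.

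The members and gene lists were chosen with earlier results of these data known. All 9 members were named, as were other pathway genes (22, listed by role) that differed by 10 points between MGE and CTX or had a marked promoter; *Hhip*, *Kif7*, *Scube1*, *Dhh*, *Disp1* and the grouping of *Gli2*, *Gli3*, *Boc* and *Cdon* were added after their values were seen. The other genes of the list entered the counts only, except 1 gene, which is not reported here. Alternatives were a q-value under 0.001; peaks under 3 kb apart joined; equal numbers or equal covered bases of the strongest peaks; flanks of 5, 20 or 0 kb; a step of more than 2 points; and promoters marked when any 1 base was covered, taken over 2 kb either side, or taken at any transcript start.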

Additional observations from a re-analysis of the deposited data

How the results depend on the processing

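The difference between MGE and CTX kept its sign for *Gli2*, *Gli3*, *Boc*, *Cdon*, *Ptch1* and *Shh* in the 7 settings run, with a range of 7.51 to 11.1 points for *Gli2*, 2.84 to 4.49 for *Gli3*, 5.94 to 11.5 for *Boc*, 4.74 to 6.08 for *Cdon*, -15 to -7.5 for *Ptch1* and -23.3 to -0.302 for *Shh*. It reversed for *Smo* with 20 kb flanks (-0.0228) and, over gene bodies alone, for *Gli1* (0.339) and *Gas1* (-0.135). The mean over the 9 genes, 3.38, became 6.76 with peaks joined and -1.34 over gene bodies alone. Members covered in MGE, CGE, LGE and CTX, which numbered 9, 9, 9 and 7, became 8, 9, 6 and 4 at a q-value under 0.001. With equal covered bases they became 9, 9, 8 and 4. The share of all genes covered in each list was not computed for these settings. Members that stepped down rose from 3 to 5 with peaks joined and with equal covered bases. With 20 kb flanks they still numbered 3, but *Cdon* (5.39% in MGE, 5.57% in CGE) was no longer among them and *Gas1* was. Those that stepped up fell from 2 to 1 with equal numbers of peaks, with equal covered bases and with 20 kb flanks. Marked promoters in MGE, CGE, LGE and CTX, which numbered 3, 2, 1 and 1, became 6, 5, 4 and 4 by any 1 base, 5, 5, 3 and 3 over 2 kb either side, and 6, 5, 3 and 2 at any transcript start. Over all genes the shares rose too, to between 22.6% and 26.2% by any 1 base, 9.76% and 12.3% over 2 kb either side, and 11% and 13.9% at any transcript start. Genes that stepped up made up 16.8% with equal numbers of peaks, 11.8% with equal covered bases and 20.1% with 20 kb flanks. Except where the setting redefines the window or promoter, the cause was not tested. No paired analysis was possible because the samples of a region were merged before peaks were called, which also means that no sample could be left out. Depth, for single peaks, and the spread between embryos cannot be read from the lists.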

Other observations

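Genes whose coverage over 2 kb either side of the start site was most like that of *Gli2*, by the summed absolute difference over the 4 lists, were *Zic2* (9.18 points), *Boc* (23.2) and *Tnfrsf19* (40.4). This measure was chosen after the data were seen. *Zic2* was covered for 100% in MGE, 45.3% in CGE and 45.2% in LGE, and 0% in CTX. For *Ptch1* the nearest genes were *Foxc1* (32.1 points), *Ccnd2* (35.6) and *C1ql2* (36.7), so no gene came as close to *Ptch1* as *Zic2* came to *Gli2*. *Ccnd2* was covered for 69.6% in MGE, 100% in CGE and LGE and 60.6% in CTX.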
